A study of Mus musculus with 2 samples.

Results

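The *Ms4a* genes described here were 9 members of 1 family, *Ms4a1*, *Ms4a4a*, *Ms4a4b*, *Ms4a4c*, *Ms4a6b*, *Ms4a6c*, *Ms4a6d*, *Ms4a7* and *Ms4a8a*, taken by name from the 32285 genes of the deposited tables. The data were 2 libraries of scRNA-seq on live CD45+ cells sorted with 7-AAD from mouse hearts. One library came from the pooled hearts of 5 WT mice and the other from those of 5 *Lyve1* KO mice. The labels do not say whether these carried the global or a conditional deletion. The study writes these samples as *Lyve1*-/-, the term it uses for its global KO mice. Every mouse had undergone myocardial infarction (MI) on postnatal day 2 and was 9 days old at collection, 7 days later (P2MI7dpi), so the libraries held neither uninjured hearts nor sham surgery, and the strain of these mice is not given in the sources used here. With 1 pool per genotype there was no replicate. All values are therefore descriptions of these libraries without a test. Their intervals are 95% exact Poisson intervals for levels and exact binomial intervals for shares, and cover counting error only.

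The MS4A proteins are small membrane proteins that cross the cell membrane several times, and many of them sit beside a signalling receptor and tune it. The best known is CD20, the product of *Ms4a1*, which marks B cells and is the target of therapeutic antibodies against B cell lymphoma. Another is the β chain of the high-affinity IgE receptor of mast cells and basophils, the product of *Ms4a2*. The genes lie side by side in 1 cluster in mouse and human, and the mouse cluster holds close copies of several members. In the infarcted adult heart, monocytes enter from the blood and become macrophages beside those resident before injury. For neonates, the study cites earlier work in which resident CCR2- macrophages increased after injury and monocyte entry did not. B and T cells are also present in the infarcted heart.

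The tables gave depths of 67968938 unique molecular identifiers (UMIs, each 1 captured RNA molecule) over 5713 barcodes for WT and 61555917 over 5285 for *Lyve1* KO, of which 4187 and 3391 barcodes were kept as cells, with medians of 11117 and 12940 UMIs. *Lyve1* itself stood at 248.5 UMIs per 1000000 UMIs (CPM) over the kept WT cells and at 13.0 CPM over the kept KO cells, and in the CCR2- macrophages, its main source, at 501 and 20.4 CPM. At least 1 UMI of *Ptprc*, which encodes CD45, was found in 94.6% of the WT and 96.8% of the KO cells that were given a class. Clusters of cells were named from fixed marker lists as 16 classes, each written X-like. A cluster led by *Saa3* and *Prg4* met no name and is called by those genes. Its nearest list was that of CCR2- macrophages, with all 13 markers detected. By the naming rule it stayed unnamed, since 1 of its 10 leading genes, *Il6*, was on the basophil list and 0 were on its nearest list. The *Ms4a* genes were neither markers nor clustering features. Of the 16 classes and this cluster, 14 had at least 20 cells in each library. The other 3 were mast cell/basophil-like, migratory DC-like and pDC-like cells. A further 734 WT and 483 KO cells stayed unnamed, since under 3 markers of the nearest list were detected in their clusters. Their median depths were 1353 and 887 UMIs, and *Ptprc* was detected in 49.6% and 49.3% of them. They include a cluster led by *Fabp4*, *Sparc* and *Col4a1*, with 40 WT and 42 KO cells and a median of 5527 UMIs.

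All 9 members lay on chromosome 19 (build GRCm38, GENCODE M21 positions) within the same gene cluster as 10 other *Ms4a* genes. From low to high coordinate the members were *Ms4a8a*, *Ms4a1* and *Ms4a7* on the minus strand, *Ms4a4a*, *Ms4a4c*, *Ms4a4b*, *Ms4a6c* and *Ms4a6b* on the plus strand, and *Ms4a6d* on the minus strand. *Ms4a4b* had its highest level in lymphocyte-like cells, although both its neighbours, *Ms4a4c* and *Ms4a6c*, had theirs in monocyte-like or cDC2-like cells. *Ms4a1*, the B cell gene, and *Ms4a7*, the macrophage gene, were separated by only *Ms4a5* and *Ms4a14* on the same strand. Among the 9, members highest in lymphocyte-like cells thus lay between members highest in myeloid cells. Some neighbours outside the 9 shared the highest class of a member. *Ms4a14*, beside *Ms4a7*, was also highest in CCR2- macrophage-like cells, and *Ms4a4d*, beside *Ms4a6b*, in T cell-like cells.

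**Figure D1:**
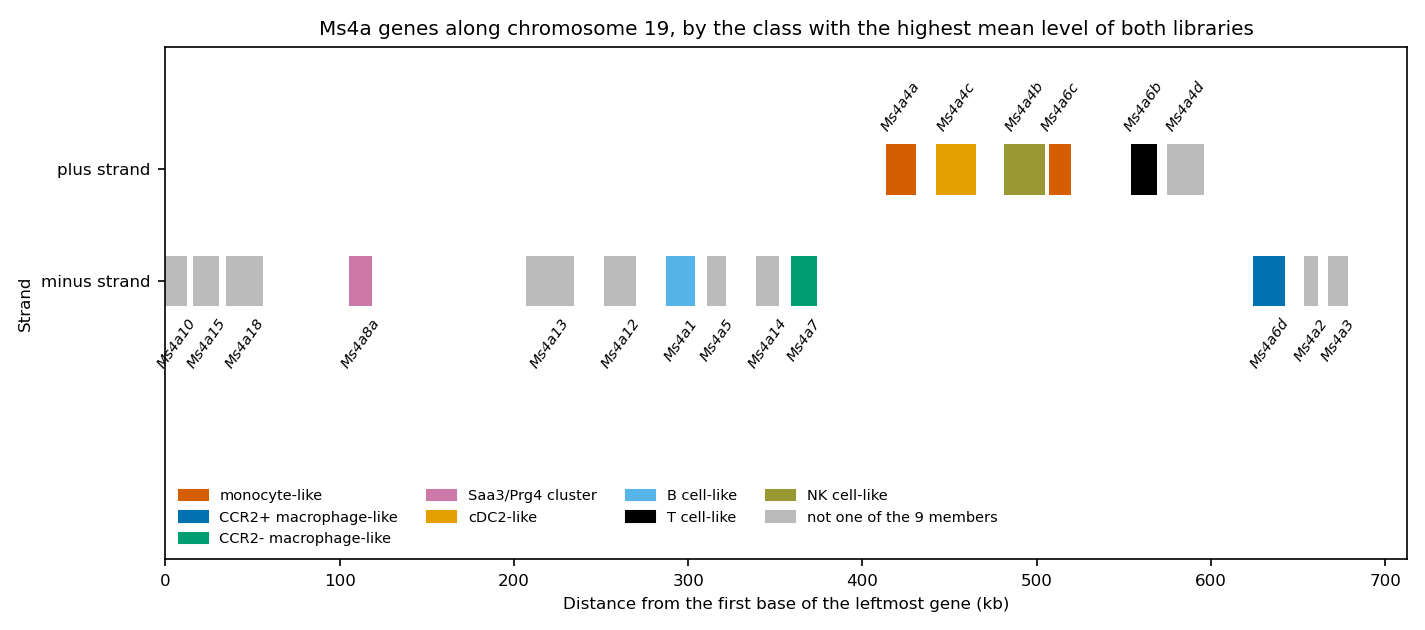
Map of the *Ms4a* genes on chromosome 19, with the distance from the first base of the leftmost gene in kb on the horizontal axis and the strand on the vertical axis; colours give, for the 9 members, the class with the highest mean CPM of both libraries, and grey marks genes outside the 9. Neighbouring members differ in colour, as at *Ms4a4c*, *Ms4a4b* and *Ms4a6c*. For *Ms4a4b*, *Ms4a4c* and *Ms4a6d* the range of the highest class over the libraries overlapped that of the next, so their colour does not exceed the spread.

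The closest copies were *Ms4a4b* and *Ms4a4c*, whose coding sequences were 91.7% identical, followed by *Ms4a6b* with *Ms4a6c* (85.0%), *Ms4a6b* with *Ms4a6d* (80.6%) and *Ms4a6c* with *Ms4a6d* (77.0%). Every other pair was at or below 65.7%. Promoter sequences (RefSeq, GRCm38.p6) were at hand for 7 of the 9 members. Among their 21 pairs, the longest local alignments were those of *Ms4a6b* with *Ms4a6c*, 86.0% identical over 172 aligned bases, and of *Ms4a4b* with *Ms4a4c*, 88.6% identical over 132 aligned bases. Those pairs are shown because each joins a member that was high in T cell-like cells with 1 that was high in monocyte-like cells. Each stretch holds 120 bases of the plus strand upstream of the RefSeq gene start, ending 5, 1 and 2 bases before it for *Ms4a4b*, *Ms4a4c* and *Ms4a6c* but 71 bases before it for *Ms4a6b*, at chr19:11443434-11443553 for *Ms4a4b*, chr19:11407541-11407660 for *Ms4a4c*, chr19:11518369-11518488 for *Ms4a6b* and chr19:11469247-11469366 for *Ms4a6c*. The GENCODE starts of *Ms4a4c* and *Ms4a6b* lie further upstream, at chr19:11404770 and chr19:11516512. By that annotation their stretches fall inside the genes. Capitals mark the bases that differ from the partner or have no partner in the alignment.
Ms4a4b: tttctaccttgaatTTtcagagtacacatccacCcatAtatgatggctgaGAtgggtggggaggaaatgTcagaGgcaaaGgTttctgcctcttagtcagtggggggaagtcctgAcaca
Ms4a4c: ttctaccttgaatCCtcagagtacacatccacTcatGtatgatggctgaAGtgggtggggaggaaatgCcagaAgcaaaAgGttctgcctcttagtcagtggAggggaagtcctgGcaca
Ms4a6b: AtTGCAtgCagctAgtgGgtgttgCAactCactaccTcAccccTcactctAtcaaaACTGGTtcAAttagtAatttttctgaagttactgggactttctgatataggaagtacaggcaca
Ms4a6c: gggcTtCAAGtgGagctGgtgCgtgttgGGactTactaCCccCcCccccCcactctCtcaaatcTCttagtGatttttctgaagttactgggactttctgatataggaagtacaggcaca
Capitals made up 11 of the 120 bases in *Ms4a4b* and 12 in *Ms4a4c*, and 24 in *Ms4a6b* and 20 in *Ms4a6c*. In the *Ms4a6* pair the capitals lay in the first part of the printed stretches and none in the last, and in the *Ms4a4* pair they were spread over the stretch.

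Because the copies are alike, reads from stretches that they share cannot be assigned to a single member. How such reads were counted was not tested. Over the annotated transcripts, 5.84% of the 60-base words of *Ms4a4c*, 3.16% of those of *Ms4a6c*, 1.86% of those of *Ms4a6b*, 1.76% of those of *Ms4a4b* and 1.27% of those of *Ms4a6d* also occurred in another *Ms4a* gene. For *Ms4a1*, *Ms4a4a*, *Ms4a7* and *Ms4a8a* this share was 0. Low levels of *Ms4a4c* and *Ms4a6c* in T cell-like and NK cell-like cells, where *Ms4a4b* and *Ms4a6b* were high, are uncertain. The part of shared stretches in these levels was not tested.

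The members fell into a B cell gene, a pair that was high in T cells and NK cells or in T cells, and 6 others. Each of these 6 was highest in a monocyte, macrophage or dendritic cell class or in the *Saa3*/*Prg4* cluster. The level map over the 14 classes shows this split in both libraries.

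**Figure D2:**
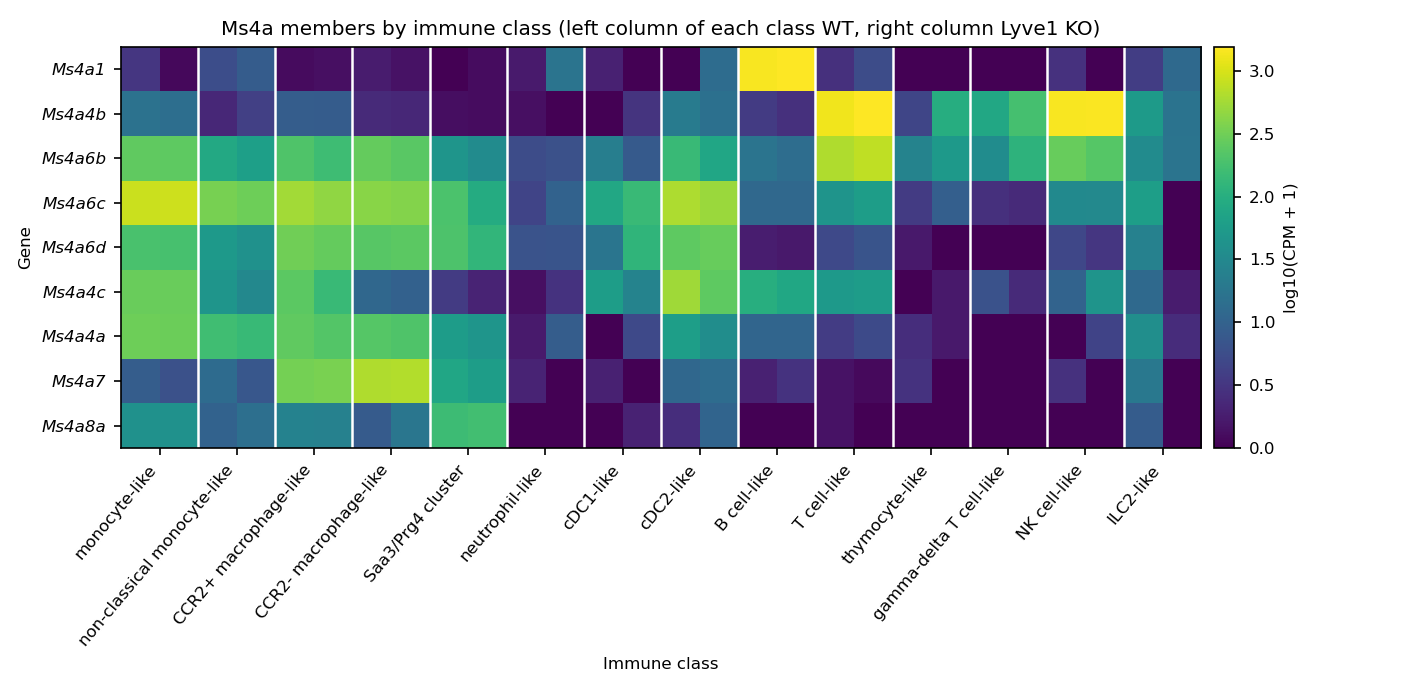
Level of the 9 members (vertical axis) in the 14 classes with at least 20 cells per library (horizontal axis), as log10(CPM + 1), with the WT library in the left and the *Lyve1* KO library in the right column of each class. *Ms4a1* is bright in B cell-like cells alone, and *Ms4a4b* in T cell-like and NK cell-like cells. Each of the lower 6 genes is brightest in a monocyte, macrophage or cDC2 class or in the *Saa3*/*Prg4* cluster, but not in all of these. *Ms4a4c* is low in CCR2- macrophage-like cells (10.8 and 8.75 CPM) and *Ms4a7* in monocyte-like cells (7.8 and 5.2 CPM). Neutrophil-like cells hold at most 16.0 CPM of any member, that of *Ms4a1* in KO.

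*Ms4a1* (ENSMUSG00000024673, chr19:11249675-11266241) encodes CD20. In B cell-like cells it stood at 1454 CPM in WT (interval 1424 to 1485) and at 1548 CPM in KO (1523 to 1574). UMIs of the gene were found in 368 of 424 WT cells and 470 of 495 KO cells. In the CCR2- macrophage-like cells, which should lack it, the levels were 0.76 and 0.42 CPM, and 1.46% and 1.0% of cells had a UMI although their median depths, 22004.5 and 22028 UMIs, were above those of the B cell-like cells (10838 and 13132). The level in B cell-like cells was thus 1908-fold that in CCR2- macrophage-like cells in WT (1210 to 3189) and 3646-fold in KO (1536 to 11420).

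No other class came near. The next in order was neutrophil-like with a WT level of 0.70 CPM and a KO level of 16.0 CPM, and 98% of those KO UMIs came from 1 cell. Within the B cell-like class, the cluster led by *Gm26917*, *Ebf1* and *Tmem163*, of low depth, held 619 and 502 CPM, and the other 2 clusters held 1507 and 1519 CPM in WT and 1568 and 1591 CPM in KO. *Iglc3* and *Igkc*, which encode antibody light chains, were among the genes with patterns most like that of *Ms4a1*, with Pearson's r of 0.98 and 0.97 over the 28 points that the 14 classes and 2 libraries gave, among 12491 genes compared. These points share libraries and classes, so each r in this text is a description.

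*Ms4a4b* (ENSMUSG00000056290, chr19:11443553-11467055) encodes a T cell surface protein known to associate with the co-stimulatory receptor GITR. It was highest in NK cell-like cells, at 1422 CPM in WT (1323 to 1527) and 1489 in KO (1411 to 1571), and in T cell-like cells, at 1329 (1281 to 1378) and 1531 CPM (1497 to 1566). The ranges of those 2 classes over the libraries overlapped, so their order did not exceed the spread. The next class, gamma-delta T cell-like, was far lower at 81.3 and 178 CPM, and thymocyte-like cells, which carry the markers of immature T cells, stood at 3.6 and 96.4 CPM.

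The level in T cell-like over thymocyte-like cells was 368-fold in WT (198 to 763) and 15.9-fold in KO (13.2 to 19.2). In the KO thymocyte-like cells 67.3% of the UMIs came from 1 cell. UMIs of *Ms4a4b* were found in 194 of 207 WT and 343 of 357 KO T cell-like cells, against 2.75% and 2.61% of CCR2- macrophage-like cells. Monocyte-like cells had a larger share, 25.1% and 22.3% (14.9 and 13.2 CPM), as did cDC2-like cells, 17.1% and 32.4% (20.2 and 13.9 CPM). The copy *Ms4a4c* was high in both classes, and the part of shared stretches in these levels was not tested. Among the 3 T cell-like clusters it was lowest in the cluster led by *Ctla4*, *Gzmb* and *Ikzf2*, at 807 and 877 CPM, and reached 1434 to 1528 CPM in WT and 1668 to 1673 in KO in the others. *Ctsw*, a cathepsin of cytotoxic lymphocytes, *Gm2682* and *Hs3st3b1* had the patterns most like it (r of 0.93, 0.92 and 0.92).

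*Ms4a6b* (ENSMUSG00000024677, chr19:11516512-11531256), first described in T cells, was the member found on both sides of the split between lymphocytes and myeloid cells. T cell-like cells led at 639.6 CPM in WT (607 to 674) and 757 CPM in KO (733 to 781). CCR2- macrophage-like cells at 274 and 235 CPM, monocyte-like cells at 255 and 249 CPM and NK cell-like cells at 279 and 221 CPM followed, and their ranges overlapped. Lower down came CCR2+ macrophage-like cells at 202 and 156 CPM and cDC2-like cells at 145 and 75.8 CPM.

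In B cell-like cells *Ms4a6b* stood at only 15.7 and 13.0 CPM, and in thymocyte-like cells at 26.0 and 50.8 CPM. T cell-like cells were thereby 24.6-fold above thymocyte-like cells in WT (18.8 to 32.8) and 14.9-fold in KO (11.6 to 19.4). *Ms4a4b* and *Ms4a6b* were detected together in 172 of 207 WT and 325 of 357 KO T cell-like cells. Cells with neither numbered 7 and 6, and their median depths, 1345 and 2252.5 UMIs, were far below those of the cells with both (11413 and 13275). Among the T cell-like clusters, *Ms4a6b* was highest in the cluster led by *Dapl1*, *Ms4a4b* and *Gm2682*, at 916 and 1000 CPM, and lowest in that led by *Ctla4*, *Gzmb* and *Ikzf2*, at 497 and 462 CPM. The genes most like it over the classes were *Ccs*, *Xylt2* and *Lpin1* (r of 0.85, 0.77 and 0.76).

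The remaining members were myeloid, and they differed in how they ranked monocyte-like, CCR2+ macrophage-like and CCR2- macrophage-like cells. *Ms4a6c* (ENSMUSG00000079419, chr19:11469366-11482192) was highest in monocyte-like cells, at 868 CPM in WT (844 to 894) and 883 CPM in KO (860.1 to 907). Levels then stepped down through cDC2-like cells (626 and 510 CPM), CCR2+ macrophage-like cells (557 and 462), CCR2- macrophage-like cells (415 and 392) and non-classical monocyte-like cells (347 and 305). Of these neighbours only the cDC2-like and CCR2+ macrophage-like ranges overlapped. Monocyte-like cells were 2.09-fold above CCR2- macrophage-like cells in WT (2.0 to 2.20) and 2.26-fold in KO (2.13 to 2.38).

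At the other end, neutrophil-like cells held 3.5 and 8.9 CPM of *Ms4a6c*. The gene was detected in 230 of 231 WT and all 242 KO monocyte-like cells, and after each cell was thinned to 3000 UMIs in 89.0% (84.2 to 92.8) and 84.3% (79.1 to 88.6). In B cell-like cells the thinned shares were 3.5% and 3.0%, the median depths before thinning being 22917 and 25059.5 UMIs in monocyte-like and 10838 and 13132 in B cell-like cells. The genes most like *Ms4a6c* were *Nagpa*, *Dbndd2* and *Ptpro* (r of 0.90, 0.90 and 0.89).

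*Ms4a6d* (ENSMUSG00000024679, chr19:11586604-11604849), whose product is known to act with the macrophage receptor VSIG4, had a flatter profile. CCR2+ macrophage-like cells at 315 CPM in WT (299 to 332) and 276 in KO (262 to 290) and cDC2-like cells at 252 and 280 CPM led with overlapping ranges, and CCR2- macrophage-like cells (232 and 244 CPM) and monocyte-like cells (189 and 181 CPM) followed. The *Saa3*/*Prg4* cluster, at 196 and 125 CPM, overlapped the monocyte-like cells. B cell-like, T cell-like and thymocyte-like cells held 5.7 CPM or less. *Ms4a6d* followed *Ms4a6c* over the 28 points with r of 0.92, the highest of the 36 pairs of members, and outside the family *Dock4*, *Cds1* and *Tcp11l1* were most like it (r of 0.95, 0.94 and 0.93).

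*Ms4a4a* (ENSMUSG00000101389, chr19:11375523-11392790), known from macrophages, where its product associates with the fungal receptor dectin-1, was likewise spread over the mononuclear phagocytes. Monocyte-like cells stood at 303 CPM in WT (289 to 318) and 297 CPM in KO (283 to 311), CCR2+ macrophage-like cells at 257 and 216, CCR2- macrophage-like cells at 219 and 202 and non-classical monocyte-like cells at 161 and 142. The ranges of the CCR2+ and CCR2- macrophage-like cells overlapped. The *Saa3*/*Prg4* cluster was lower at 57.1 and 44.9 CPM. Within CCR2- macrophage-like cells of the WT library, *Ms4a4a* was highest in the cluster led by *Ccl8*, *Lyve1* and *Tslp*, at 305 CPM, where KO held 258 CPM. *Gm5431*, *Iqsec2* and *Ticam2* were most like it (r of 0.94, 0.93 and 0.92).

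*Ms4a4c* and *Ms4a7* separated monocyte-like, CCR2+ macrophage-like and CCR2- macrophage-like cells most sharply, and in opposite directions. *Ms4a4c* (ENSMUSG00000024675, chr19:11404770-11427246) stood at 538 CPM in WT (498 to 581) and 246 in KO (221 to 273) in cDC2-like cells, at 291 and 286 CPM in monocyte-like cells and at 246 and 144 CPM in CCR2+ macrophage-like cells. In CCR2- macrophage-like cells it was at 10.8 and 8.75 CPM. Monocyte-like cells were therefore 27.1-fold above CCR2- macrophage-like cells in WT (22.9 to 32.1) and 32.7-fold in KO (25.7 to 42.0). The cDC2-like and monocyte-like ranges overlapped. Non-classical monocyte-like cells held 44.6 CPM of *Ms4a4c* in WT and 29.6 in KO, and 11.9 and 6.3 CPM of *Ms4a7*. The *Saa3*/*Prg4* cluster held 2.6 and 1.1 CPM of *Ms4a4c*.

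*Ms4a4c* was also the myeloid member with a clear level in B cell-like cells, at 98.5 and 78.3 CPM, or 9.16-fold and 8.95-fold the level in CCR2- macrophage-like cells. Its UMIs were in 178 of 424 WT and 208 of 495 KO B cell-like cells. Within that class *Ms4a4c* was lowest in the cluster led by *Ms4a1*, *Zbtb32* and *Cd79a*, at 73.7 and 46.0 CPM. The cluster led by *Fcer2a*, *Vpreb3* and *Ighd* held 119 and 128 CPM. Highest was the low-depth cluster led by *Gm26917*, *Ebf1* and *Tmem163*, at 205 and 169 CPM. The genes most like *Ms4a4c* over the classes were *Ifi209*, *Ifi35* and *Abcc4* (r of 0.83, 0.77 and 0.76), and *Ifi209* and *Ifi35* are known as interferon-inducible genes.

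*Ms4a7* (ENSMUSG00000024672, chr19:11321039-11336146), a gene of tissue macrophages and of macrophages at the borders of the brain, had the reverse order. CCR2- macrophage-like cells stood at 648 CPM in WT (638 to 658) and 655 in KO (641 to 670), CCR2+ macrophage-like cells at 328 and 355 CPM, and the *Saa3*/*Prg4* cluster at 77.3 and 58.8 CPM. Monocyte-like cells, at 7.8 and 5.2 CPM, were 83.1-fold below CCR2- macrophage-like cells in WT (60.6 to 117) and 127-fold below in KO (88.0 to 190). No neighbours among those first 3 groups had overlapping ranges.

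After thinning to 3000 UMIs, *Ms4a7* was detected in 72.8% of WT and 72.4% of KO CCR2- macrophage-like cells, in 35.3% and 31.5% of CCR2+ macrophage-like cells and in 1.8% and 2.1% of monocyte-like cells. The share in B cell-like cells, which should lack the gene, was 0.80% and 0.86%. Without thinning, the monocyte-like level was low but above that of B cell-like cells. It was 7.8 CPM in WT (5.6 to 10.5) and 5.2 in KO (3.5 to 7.3). B cell-like cells held 0.98 CPM (0.36 to 2.14) and 1.9 CPM (1.11 to 3.05). In the 8 clusters of CCR2- macrophage-like cells the level ran from 293 to 753 CPM in WT and from 216 to 1267 CPM in KO, lowest in both libraries in the low-depth cluster led by *Gm26917*, *Plxna4* and *Dip2c*. The genes most like *Ms4a7* were *Gna12*, *C3ar1*, which encodes a complement receptor, and *Igf1*, a growth factor made by resident macrophages (r of 0.97, 0.97 and 0.96).

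**Figure D3:**
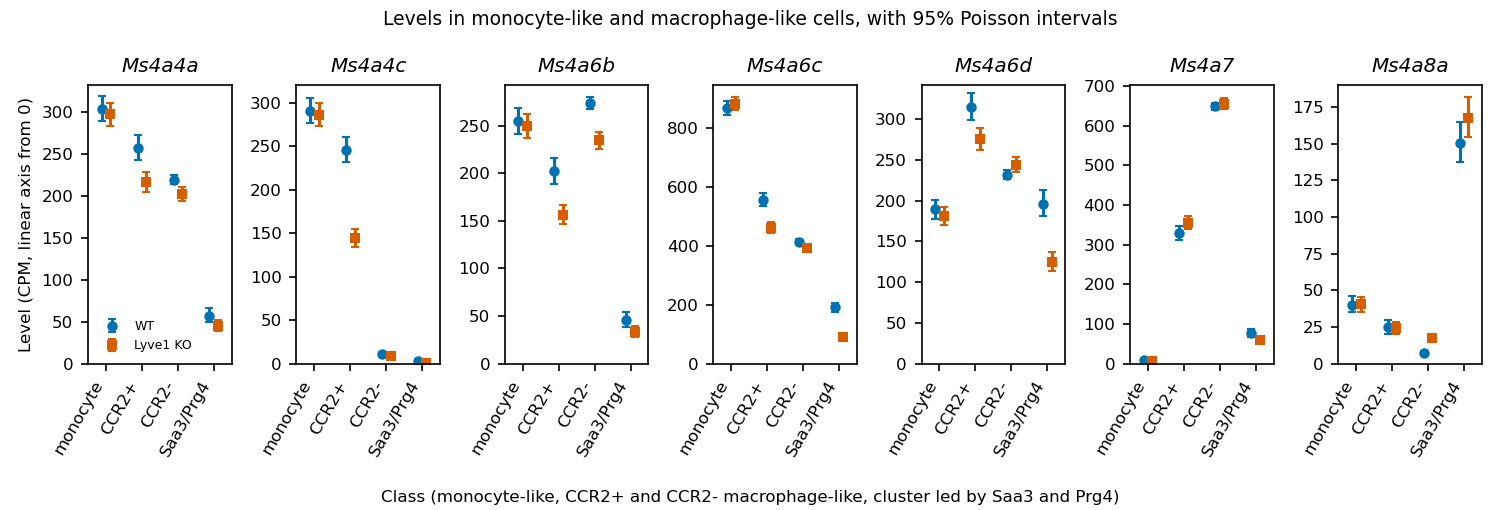
Level in CPM (vertical axis, linear from 0, with its own scale for each gene) of the 7 members found in myeloid cells, in monocyte-like, CCR2+ macrophage-like and CCR2- macrophage-like cells and in the *Saa3*/*Prg4* cluster; blue circles are WT, orange squares *Lyve1* KO, and bars 95% exact Poisson intervals. *Ms4a4c* drops to 10.8 and 8.75 CPM in CCR2- macrophage-like cells, *Ms4a7* goes from 7.8 and 5.2 CPM in monocyte-like cells to 648 and 655 CPM there, and *Ms4a8a* peaks in the *Saa3*/*Prg4* cluster.

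CCR2+ macrophage-like cells, with intermediate levels of both genes, were examined for UMIs of both in the same cell. In WT, 65 of 183 such cells had UMIs of both *Ms4a4c* and *Ms4a7*, 40 had only *Ms4a4c*, 40 had only *Ms4a7* and 38 had neither. In KO the counts were 58, 41, 41 and 41 of 181 cells. Median depth was similar in the WT cells with both, with *Ms4a4c* alone and with *Ms4a7* alone (26105, 24055 and 25568 UMIs), and lower in those with neither (9804). In KO these medians were 29563, 30454 and 30881 UMIs, and 25536 in the cells with neither, so that a large gap in depth was seen in WT alone. In CCR2- macrophage-like cells, by comparison, 948 of 1164 WT cells had *Ms4a7* alone, 122 had both and 4 had *Ms4a4c* alone.

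*Ms4a8a* (ENSMUSG00000024730, chr19:11067471-11081102), described in alternatively activated macrophages, had its highest level in the *Saa3*/*Prg4* cluster. This cluster of 64 WT and 65 KO cells also had *Marco*, *Alox15* and *Cd5l* among its leading genes. It held 151 CPM of *Ms4a8a* in WT (137 to 165) and 168 CPM in KO (155 to 182), with UMIs in 56 of 64 and 59 of 65 cells. Monocyte-like cells were next at 40.1 and 40.3 CPM, CCR2+ macrophage-like cells at 24.7 and 24.1 and CCR2- macrophage-like cells at 7.2 and 17.1. Within the cluster *Ms4a6d* (196 CPM) and *Ms4a6c* (191 CPM) stood above *Ms4a8a* in WT, but below it in KO (125 and 91.7 CPM).

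For *Ms4a8a* the cluster was thus 3.76-fold above monocyte-like cells in WT (3.0 to 4.73) and 4.16-fold in KO (3.39 to 5.12). The median depth of its cells was high, at 47270 and 54816 UMIs. At 3000 UMIs per cell, *Ms4a8a* was detected in 31.8% (20.6 to 44.7) and 34.4% (23.0 to 47.3) of its cells and in 7.5% and 12.8% of monocyte-like cells. No UMI of the gene was found in the 424 WT and 495 KO B cell-like cells, nor in the 349 and 339 neutrophil-like cells. For the thinned B cell-like cells, 0 of 373 and 0 of 464 allow shares of up to 0.80% and 0.65%. Among CCR2- macrophage-like clusters it was highest in that led by *Ccl8*, *Lyve1* and *Tslp*, at 19.2 and 41.3 CPM. *Cfb*, *Tnfsf13* and *Msr1*, which encode a complement factor, the cytokine APRIL and a scavenger receptor, were most like *Ms4a8a* (all r of 0.95).

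The monocyte-like class joined a cluster led by *S100a8*, *Ly6c2* and *Vcan* with 1 led by *Ace*, *Arhgef37* and *Plac8*, some of whose leading genes are non-classical monocyte markers. *Ms4a6b* stood at 212 CPM in the first and 338 CPM in the second in WT and 217 and 300.2 CPM in KO. *Ms4a6d* stood at 170.2 and 227 CPM in WT and 189 and 169 CPM in KO, and *Ms4a4a* at 279 and 350.4 CPM in WT and 278 and 326 CPM in KO. *Ms4a6c* stood at 823 and 956 CPM in WT and at 872 and 901 CPM in KO, *Ms4a4c* at 272 and 327 CPM in WT and 290 and 280 CPM in KO, and *Ms4a8a* at 40.2 and 40.0 CPM in WT. The non-classical monocyte-like class joined a cluster led by *Ace*, *Eno3* and *Treml4* with a low-depth cluster led by *Ldlrad3*, *Rap1gap2* and *Zfyve9*. *Ms4a6c* was 369 and 323 CPM in the first and 262 and 232 CPM in the second.

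Neutrophil-like, gamma-delta T cell-like, thymocyte-like, cDC1-like and ILC2-like cells had few members detected per cell after thinning. At 3000 UMIs per cell, the median number of the 9 members detected was 3 in monocyte-like and CCR2- macrophage-like cells, 2 in T cell-like and cDC2-like cells, 1 in B cell-like and NK cell-like cells and 0 in those 5 classes. No member was detected in 98.8% of WT and 98.4% of KO neutrophil-like cells. This share was lower in cDC1-like cells, at 66.7% and 59.1%, and in gamma-delta T cell-like cells, at 90.9% and 69.6%. Without thinning, *Ms4a6c* stood at 81.7 and 144 CPM in cDC1-like cells, and *Ms4a4b* at 81.3 and 178 CPM in gamma-delta T cell-like cells. Conversely, 3 or more members were detected in 66.7% and 64.0% of monocyte-like cells and in 57.0% and 57.4% of CCR2- macrophage-like cells. In WT ILC2-like cells the top cell of each gene gave 100% of the UMIs of *Ms4a4a*, *Ms4a7* and *Ms4a8a*. It gave 96.9% of those of *Ms4a6c* and 88.5% of those of *Ms4a6d*, but 50% of the 12 UMIs of *Ms4a4c*. Whether the top cell was the same for these genes was not examined.

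The closest copies differed in how alike their class patterns were. *Ms4a4b* and *Ms4a4c*, 91.7% identical in coding sequence, had r of only 0.11 over the 28 points, *Ms4a6b* and *Ms4a6c* 0.50 and *Ms4a6b* and *Ms4a6d* 0.30, against 0.92 for *Ms4a6c* and *Ms4a6d*. Some pairs with little sequence in common were alike in pattern, such as *Ms4a4a* and *Ms4a8a* with 60% identity and r of 0.82.

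**Figure D4:**
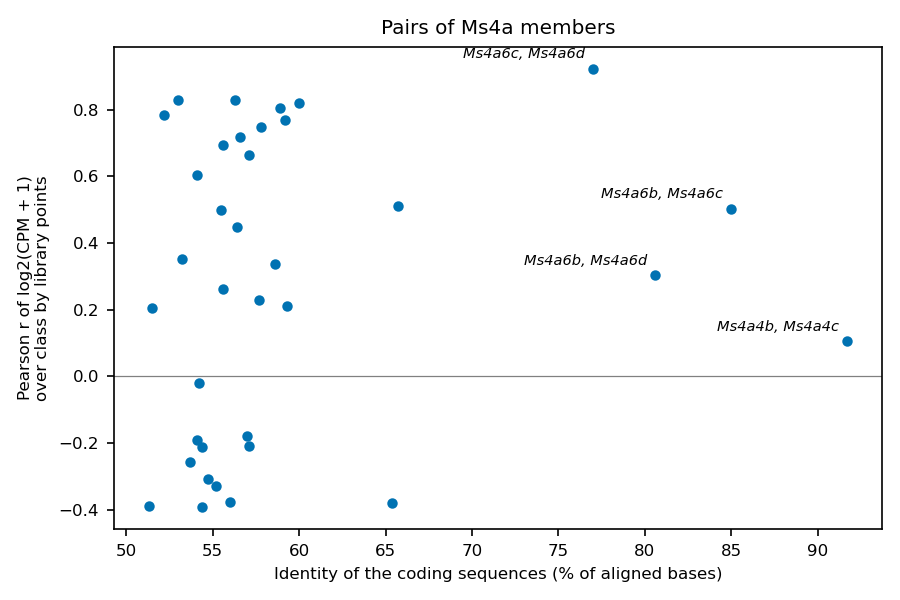
The 36 pairs of members, with the identity of their coding sequences in percent of aligned bases on the horizontal axis and Pearson's r of log2(CPM + 1) over 28 points of class and library on the vertical axis; each point is 1 pair. The 4 labelled pairs above 70% identity range in r from 0.11 (*Ms4a4b*, *Ms4a4c*) to 0.92 (*Ms4a6c*, *Ms4a6d*).

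The other family genes in the tables were 12, of which 5 had at least 100 UMIs over the kept cells, namely *Ms4a2*, *Ms4a4d*, *Ms4a14* and the related *Tmem176a* and *Tmem176b*. The highest of the other 7 had 34 UMIs. *Ms4a2*, the IgE receptor β chain, stood at 495 CPM in WT (421 to 579) and 549 CPM in KO (451 to 661) in mast cell/basophil-like cells, of which there were 30 and 15, and was at or below 0.16 CPM in B cell-like cells. *Ms4a14*, the gene beside *Ms4a7*, was highest in CCR2- macrophage-like cells too, at 37.5 and 47.2 CPM, then in CCR2+ macrophage-like cells at 12.5 to 13.8 CPM. *Ms4a4d*, beside *Ms4a6b*, reached 6.3 to 9.0 CPM in T cell-like cells. *Tmem176b* was broader, at 956 and 717 CPM in gamma-delta T cell-like cells and 614 and 705 CPM in CCR2- macrophage-like cells.

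Receptors known to pair with MS4A proteins were partly found in the classes of their partner. *Trem2*, linked to MS4A4A in human macrophages, stood at 427 and 405 CPM in CCR2+ and 354 and 355 CPM in CCR2- macrophage-like cells, but at 90.2 and 73.8 CPM in monocyte-like cells, where *Ms4a4a* was highest. *Vsig4*, the partner of *Ms4a6d*, stood at 115 and 62.6 CPM in the *Saa3*/*Prg4* cluster and at 64.5 and 41.2 CPM in CCR2- macrophage-like cells, with overlapping ranges, and had no UMI in CCR2+ macrophage-like cells, where *Ms4a6d* had its highest mean level of both libraries. *Tnfrsf18*, which encodes GITR, was highest in ILC2-like cells at 349 and 333 CPM and lower in NK cell-like (99.1 and 108 CPM) and T cell-like cells (83.6 and 86.6 CPM), where *Ms4a4b* was high. *Cd40*, a partner of CD20, stood at 63.4 and 59.6 CPM in B cell-like cells, but was highest in migratory DC-like cells at 326 and 281 CPM, and stood at 49.3 and 57.7 CPM in cDC2-like cells. *Cd81*, listed as another partner of CD20, was highest in CCR2- macrophage-like cells, at 317 to 400 CPM over the libraries. In B cell-like cells *Cd81* ranged from 216 to 247 CPM. *Fcer1a*, the IgE-binding chain, stood at 593 and 801 CPM in mast cell/basophil-like cells. *Fcer1g*, also listed as a partner of *Ms4a2*, ranged from 1567 to 1658 CPM there. It was highest in non-classical monocyte-like cells, at 2914 to 3028 CPM.

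The design asks whether loss of *Lyve1* moved these genes. Within a class the KO library was set against the WT library as the log2 ratio of CPM + 10. Pairs of a member and a class were compared where WT and KO summed to 100 UMIs or more, and a ratio of at least 1 in size counted as past the fold. Of 54 such pairs, 5 were past the fold, 4 with KO higher and 1 with KO lower, or 9.26%, beside 0.841% of the 83107 gene and class pairs compared over all genes (0.359% with KO higher and 0.483% with KO lower). Of the 54 ratios 41 were under 0.5 in size, the median was -0.07 and the range -1.10 to 2.97. A pair with most of its UMIs in 1 library passes the filter through that library, so these counts are descriptions.

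In the monocyte, non-classical monocyte and macrophage classes, where most of the family was expressed, 0 of 26 pairs were past the fold, with ratios of -0.73 to 0.65. This was 0 of 7 in monocyte-like cells (0.189% of all genes there), 0 of 5 in non-classical monocyte-like cells (0.516%), 0 of 7 in CCR2+ macrophage-like cells (0.643%) and 0 of 7 in CCR2- macrophage-like cells (0.211%). *Ms4a7* in CCR2- macrophage-like cells, 648 against 655 CPM, had a ratio of 0.02 (-0.04 to 0.07), although *Lyve1* in the same cells went from 501 to 20.4 CPM. *Ms4a6c* in monocyte-like cells had a ratio of 0.02 (-0.06 to 0.10). The largest ratios of these classes were *Ms4a4c* in CCR2+ macrophage-like cells, -0.73 (-0.91 to -0.55), and *Ms4a8a* in CCR2- macrophage-like cells, 0.65 (0.44 to 0.87), from 189 UMIs in WT and 201 in KO. In CCR2+ macrophage-like cells the monocyte markers summed to 4736 CPM in WT and 3330 in KO. The CCR2- macrophage markers summed to 8805 and 7096 CPM there, and the CCR2+ macrophage markers to 18730 and 20040 CPM. The part of these differences in the *Ms4a4c* ratio was not tested.

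In B, T and NK cell-like cells and the *Saa3*/*Prg4* cluster no member was past the fold either. The counts past the fold were 0 of 5 in B cell-like cells (0.664% of all genes there), 0 of 4 in T cell-like cells (0.571%), 0 of 2 in NK cell-like cells (1.6%) and 0 of 6 in the *Saa3*/*Prg4* cluster (0.935%). In that cluster, nearest to the CCR2- macrophage list, the median ratio of the members was -0.35. *Ms4a1* in B cell-like cells had a ratio of 0.09 (0.04 to 0.14), *Ms4a4b* in T cell-like cells 0.20 (0.12 to 0.29) and *Ms4a6b* there 0.24 (0.12 to 0.36). ILC2-like and neutrophil-like cells had no member with 100 UMIs (2.21% and 1.12% of all genes there were past the fold).

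All 5 pairs past the fold lay in classes of at most 141 cells in a library. The 1 with KO lower was *Ms4a4c* in cDC2-like cells, which went from 666 UMIs in 35 WT cells (538 CPM) to 354 UMIs in 34 KO cells (246 CPM), a ratio of -1.10 (-1.35 to -0.84). It was 1 of 5 members compared there, beside 1.98% of all genes. The ratio was -0.95 in cells of male hearts and -0.98 in cells of female hearts, neither of them past the fold. These cells come from different animals of each pool, but the number of hearts of each sex is not known here. No cell gave more than 15.8% of the UMIs of its library. In the same class the summed level of the 8 cDC2 markers was 3001 CPM in WT and 2414 in KO, and that of the 13 CCR2- macrophage markers 1232 and 1626 CPM, of which 0 and 2 were at 0. Their part in the ratio was not tested.

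In gamma-delta T cell-like cells both members compared were past the fold, beside 1.61% of all genes. *Ms4a4b* went from 45 UMIs in 54 WT cells (81.3 CPM) to 126 UMIs in 49 KO cells (178 CPM), a ratio of 1.04 (0.41 to 1.68), and *Ms4a6b* from 19 to 81 UMIs (34.3 to 114 CPM), a ratio of 1.49 (0.66 to 2.31). For *Ms4a4b* the ratio was 2.12 in cells of male hearts but -0.62 in cells of female hearts, and for *Ms4a6b* it was 1.63 and 0.92. The 7 thymocyte markers together had a summed level of 18.1 CPM in WT cells and 171 CPM in KO cells, with 4 of them at 0 in each, and the 8 NK cell markers at 3.6 and 59.3 CPM, with 6 at 0 in each. The part of other cells in these ratios was not tested.

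In each of the other pairs past the fold, 1 cell held most of the KO UMIs. *Ms4a4b* in thymocyte-like cells went from 11 UMIs in 141 WT cells (3.6 CPM) to 150 UMIs in 67 KO cells (96.4 CPM), a ratio of 2.97 (2.48 to 3.38), with the UMIs lying in 9 WT and 10 KO cells. It was 1 of 2 members compared there (0.965% of all genes). Without the cell of each library with the most UMIs the ratio was 1.70, still past the fold. *Ms4a6d* in cDC1-like cells went from 17 to 123 UMIs (16.5 to 123 CPM), a ratio of 2.32 (1.62 to 2.99), but 84.6% of the KO UMIs came from 1 cell and without the top cells the ratio was 0.56. It was 1 of 2 members compared there (2.05% of all genes).

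**Figure D5:**
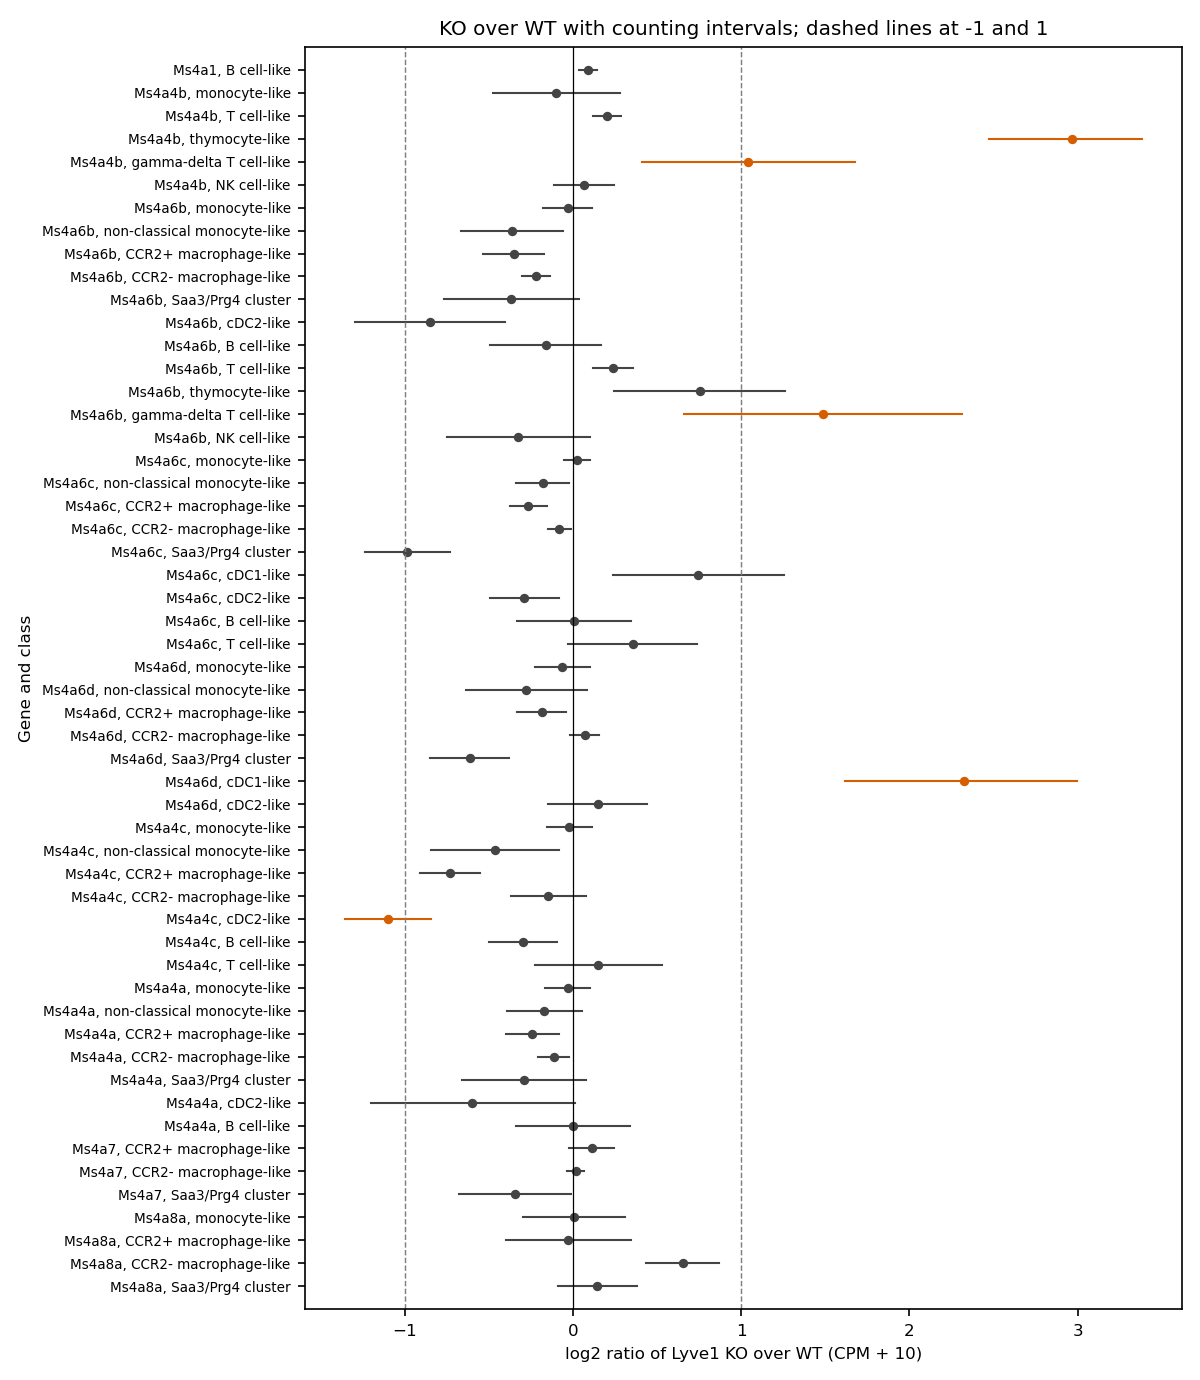
Log2 ratio of *Lyve1* KO over WT (CPM + 10, horizontal axis) for the 54 pairs of a member and a class (vertical axis), with bars for the interval from exact Poisson bounds and dashed lines at -1 and 1. The 5 pairs past the lines are orange and lie in thymocyte-like, gamma-delta T cell-like, cDC1-like and cDC2-like cells, and every pair of the monocyte and macrophage classes lies between the lines.

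Just inside the threshold lay *Ms4a4b* in gamma-delta T cell-like cells at 1.04 and *Ms4a4c* in cDC2-like cells at -1.10, and just outside it *Ms4a6c* in the *Saa3*/*Prg4* cluster at -0.98 (-1.24 to -0.73), which went from 191 to 91.7 CPM, and *Ms4a6b* in cDC2-like cells at -0.85. For the other family genes, 20 pairs of 3 genes could be compared, and 0 had KO higher and 1 KO lower, *Tmem176b* in ILC2-like cells at -1.36. For the receptors, 38 pairs of 6 genes gave 1 with KO higher, *Cd81* in cDC2-like cells at 1.46 with 57.8% of the KO UMIs in 1 cell, and 1 with KO lower, *Fcer1g* in ILC2-like cells, where 1 cell held 99.3% of the WT UMIs. These pairs were named after their values were seen. The medians of these lists were -0.29 and -0.07, and that of all genes lay between -0.04 and 0.03 in every class. Their shares past the fold are to be read beside the same 0.841% of all genes.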

How the data were processed

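Live CD45+ cells of P2MI7dpi hearts, pooled from 5 mice per genotype, were profiled with 10x 5′ chemistry. The deposited tables held raw counts of UMIs per gene and barcode, which the authors made with Cell Ranger 8.0.1 (file header) against mm10. No replicate columns, cell annotation or map from cells to hearts were used here. Cells needed 500 genes and 250 UMIs or more and a mitochondrial share of 30% or less, and of these the highest scrublet scores in scanpy 1.11.5 (98 WT and 73 KO barcodes, at 0.4% per 1000 barcodes) were left out as doublets, since the automatic threshold marked 0 in either library. The libraries shared 9 barcodes.

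Cells were integrated across the libraries (CCA, cell cycle scores regressed) and clustered with Seurat 5.3.0 (2000 variable genes, 30 dimensions, 20 neighbours, resolution 0.8), the monocytes and macrophages in a separate pass, without the *Ms4a*, *Tmem176*, *Lyve1* and receptor genes as features. The clustering depended on linear-algebra settings, which were fixed. Clusters were named from marker lists by a scoring rule set after the data were seen (3 or more markers each in 25% of cells, and no more leading markers of another list than of their own among 10 leading genes, lists of 1 lineage not counted against each other). A difference in class from the study may come from these rebuilt names.

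UMIs were summed per class and library and given as CPM of all UMIs of that class. Intervals are exact, at 95%. A count of 0 allows up to 3 counts. KO was set against WT as a log2 ratio of CPM + 10, with bounds from the opposite ends of the Poisson intervals, in classes with at least 20 cells per library. Shares of cells were taken after thinning to 3000 UMIs, leaving out shallower cells. Cells were assigned to male or female hearts from *Xist* and Y-linked genes. Pearson's r used log2(CPM + 1) and genes with at least 200 UMIs, and the 3 most alike genes outside the family were named for each member, except 1 gene that is not reported here. Every member was described, and a pair was named for its ratio where it passed the fold or lay just outside. Scripts were tested on simulated data. The members and all gene lists were chosen with earlier results of these data known. Python 3.11.15, numpy 2.4.6, scipy 1.17.1, pandas 2.3.3, Biopython 1.88, matplotlib 3.10.9 and R 4.3.3 were used.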

Additional observations from a re-analysis of the deposited data

Results flagged for a closer look

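Barcodes outside the cell limits, 1428 in WT and 1821 in KO, entered no comparison of classes. Every member had a higher level there in KO than in WT. For 3 members the intervals of the libraries did not overlap. For the others they did, as for *Ms4a7* at 61.6 CPM in KO (50.8 to 74.1) and 49.5 CPM in WT (39.4 to 61.3). *Ms4a1* stood at 54.5 CPM in KO (44.4 to 66.3) and 18.5 CPM in WT (12.6 to 26.2). *Ms4a4b* stood at 57.8 CPM in KO (47.3 to 69.9) and 13.7 CPM in WT (8.7 to 20.6). *Ms4a4c* stood at 25.6 CPM in KO (18.8 to 34.1) and 9.5 CPM in WT (5.5 to 15.5). The intervals cover counting error only, and the cause was not tested.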

How the results depend on the processing

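No paired analysis was possible because each genotype had 1 library, and for the same reason no replicate could be left out. The median over the members of the level in the highest class was 652 CPM, and 679 CPM without cell cycle regression. Of the 9 members, 8 had the same highest class under stricter cell limits or with no doublets left out. There *Ms4a4b* in NK cell-like cells over the next class had log2 ratios of -0.43 and -0.51. The median share of thinned cells with a UMI in the highest class was 72.6%, 52.7% at 1500 UMIs and 89.6% without thinning. Of the member and class pairs, 5 were past the fold, 0 with the mean of log-normalized values per cell, which is another scale, 7 with a pseudocount of 1 or in cells of male hearts, and 4 to 6 elsewhere. *Ms4a4b* in gamma-delta T cell-like cells turned to -0.62 in cells of female hearts. Over all genes 699 of 83107 pairs were past the fold, 1975 of 217843 with a minimum of 1 UMI and 1227 with a pseudocount of 1. Of 594 values of KO over WT under an alternative, 501 stayed within their interval and 92 moved beyond it in the same direction or without a call. Where a change came with an alternative, its cause was not tested. Depth limits the classes of few cells most.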

Other observations

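In the unnamed cells, the WT level of *Ms4a1* was 46.6 CPM and the KO level 52.3 CPM. Their clusters differed in share between the libraries. The cluster led by *Hbb-bs* had 319 WT and 399 KO cells, and that led by *Ighv1-78* had 134 and 2. Over all unnamed cells *Ms4a7* stood at 209 and 112 CPM, *Ms4a6c* at 170 and 87.2, *Ms4a6b* at 110 and 62.7 and *Ms4a6d* at 107 and 39.4. *Ms4a4a* stood at 91.0 and 29.7 CPM, *Ms4a4c* at 32.4 and 17.4, *Ms4a4b* at 17.3 and 52.3 and *Ms4a8a* at 2.1 and 3.2. The unnamed cluster led by *Il31ra*, with 241 WT and 40 KO cells, held 404 and 273 CPM of *Ms4a7*. Among CCR2- macrophage-like clusters, that led by *Trim69* held 753 and 1267 CPM of *Ms4a7* in 15 WT and 16 KO cells. The cluster led by *Cd207*, *Vsig4* and *Clec4f*, with 67 WT and 16 KO cells, held 42.2 and 8.4 CPM of *Ms4a4c* and 238 and 61.5 CPM of *Ms4a4a*.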
